A study of Mus musculus with 6 samples.

Results

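S100a5 is a small protein that binds calcium in mature sensory neurons of the nose, and it was described here beside 9 relatives of the same family: S100a1, S100a3, S100a4, S100a6, S100a10, S100a11, S100a13, S100a16 and S100b. S100a5 was chosen by its measured difference between the 2 sides of the nose in these same arrays, and the relatives were chosen by family name. The values that chose S100a5 are therefore given as a description, with their error and without a p-value. Of the 10 genes, 8 had a probe set annotated with their symbol alone, each of them 1 probe set, out of 23332 probe sets and 14860 such genes on the array. S100a11 and S100a16 had none and were not analysed here.

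The tested tissue was olfactory epithelium from C57Bl/6 mice, taken 5 days after 1 nostril had been closed (unilateral naris occlusion). The occluded group held 3 arrays from the side of the closed nostril and the contralateral group 3 arrays from the open side, in a study of 3 mice. Per the labels, closure lowers odour stimulation on its own side and raises it on the other, so the contralateral side was not an untreated reference. The labels do not say which arrays share a mouse, and errors below measure the spread between these arrays, which may in part be technical. Defining markers of the tissue were high on both sides: Omp, whose product marks mature sensory neurons, averaged 13.67 ± 0.07 on the occluded and 13.56 ± 0.07 on the contralateral side (SD, n = 3 each), in the deposited RMA log2 values that are used throughout. One unit on this scale is a doubling of signal.

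S100 proteins are dimers of short chains that each carry a pair of calcium-binding EF-hand loops, and on binding calcium most of them expose a surface that grips a target protein. Most of the genes lie together in a single cluster, which in the mouse is on chromosome 3, while S100b lies on chromosome 10. The family is known for sharp cell-type preferences: S100a5 in olfactory neurons, S100b in glia, S100a4 in fibroblasts and immune cells, and S100a8 with S100a9 in neutrophils. S100a5 thus sits among close neighbours with other cellular homes.

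In the RefSeq annotation of the mouse (GRCm38.p6), the order along the start of the cluster was S100a1, S100a13, S100a14, S100a16, S100a3, S100a2, S100a4, S100a5 and S100a6, so S100a4 and S100a6 flank S100a5 directly. The 250 bases before the annotated start are shown for S100a5, on which the results turn, for its neighbour S100a6, and for S100a13, the 1 member whose stretch held a short cAMP-response motif. Capitals mark a motif match.

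S100a5 (chr3:90608272-90608521, plus strand): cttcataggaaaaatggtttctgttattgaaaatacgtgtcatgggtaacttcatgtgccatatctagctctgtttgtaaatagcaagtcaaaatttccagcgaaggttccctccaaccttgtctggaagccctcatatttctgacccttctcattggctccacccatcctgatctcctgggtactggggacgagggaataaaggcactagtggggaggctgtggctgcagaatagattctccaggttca
S100a6 (chr3:90612644-90612893, plus strand): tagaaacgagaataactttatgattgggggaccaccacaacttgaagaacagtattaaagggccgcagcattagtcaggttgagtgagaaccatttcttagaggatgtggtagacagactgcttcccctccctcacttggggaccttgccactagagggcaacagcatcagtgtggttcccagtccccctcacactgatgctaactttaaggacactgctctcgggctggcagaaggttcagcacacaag
S100a13 (chr3:90514185-90514434, plus strand): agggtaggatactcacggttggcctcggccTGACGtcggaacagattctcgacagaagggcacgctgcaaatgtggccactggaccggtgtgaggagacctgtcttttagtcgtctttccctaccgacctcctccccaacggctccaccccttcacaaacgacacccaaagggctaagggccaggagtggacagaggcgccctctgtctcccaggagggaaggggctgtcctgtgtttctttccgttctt

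Motifs linked to activity-regulated and olfactory neuron genes were searched on both strands in 13 such stretches of 9 members; S100a10 had no entry in the table. The full cAMP response element TGACGTCA was found in 0 of the 13, against 1.55% of 32851 promoters in the table. Its shorter form TGACG, which the full element contains, was found in 1 of the 13, that of S100a13, 220 bases before the start, against 17.8% of all promoters. CCCNNGGG, the core of the motif bound by Ebf (O/E) factors of olfactory neurons, was found in 3 of the 13, against 11.8% of all promoters. These were 1 stretch each of S100a3, S100a16 and S100b. S100a3 and S100a16 also had other annotated starts without it. The counts were not tested. The stretch of S100a5 held none of the 3 motifs, which says only that these letters are not in this window. S100a1 and S100a13 start on opposite strands, and their stretches share 104 bases.

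S100a5 had log2 values of 10.46, 10.02 and 10.02 on the occluded side, against 12.09, 11.76 and 12.19 on the contralateral side. The highest occluded array thus lay 1.30 log2 units below the lowest contralateral one, and the sides did not overlap. The mean was 10.17 ± 0.25 on the occluded side and 12.01 ± 0.22 on the contralateral side (SD, n = 3 each), a log2 difference of -1.85 (SE 0.17) in limma, or a 3.59-fold lower level. Of all probe sets 1 had a slightly lower difference, an unannotated one with a mean level of 4.73 (-1.853 against -1.846 for S100a5), and 12 probe sets in all, S100a5 included, differed by at least as much in either direction. In a bulk tissue, fewer cells of a type and less RNA per cell cannot be told apart.

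Within a side, S100a5 varied more than most probe sets, with a pooled SD of 0.24 against a median of 0.16 over all of them, and 24.8% of probe sets varied as much or more. Its deviations from the side means went with the median level of the array, at r = 0.94 over 6 arrays. The array medians lay between 7.94 and 8.12. An equal shift of all genes drops out when S100a5 is set against other genes of the same array, as is done further on. Spread beyond such a shift stays. Against Omp the SD was still 0.19 on the occluded side and 0.17 on the contralateral side.

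None of the 7 measured relatives had a difference of comparable size. None of the 7 passed an adjusted p of 0.05 in limma over all probe sets, where the share called was 0% (0 of 23332); at an unadjusted p under 0.05 the share of all probe sets was 5.28%. The relatives' adjusted p-values lay between 0.823 and 0.888. Their differences ran from -0.07 to 0.48 with a median of 0.24, beside 0.055 for all probe sets, and 6 of 7 lay above 0, as did 15130 of 23332 probe sets. The sides did not overlap in 2 of the 8 members. These were S100a5, on the lower side as were 3.24% of all probe sets, and S100a10, on the higher side as were 7.49%.

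**Figure D1:**
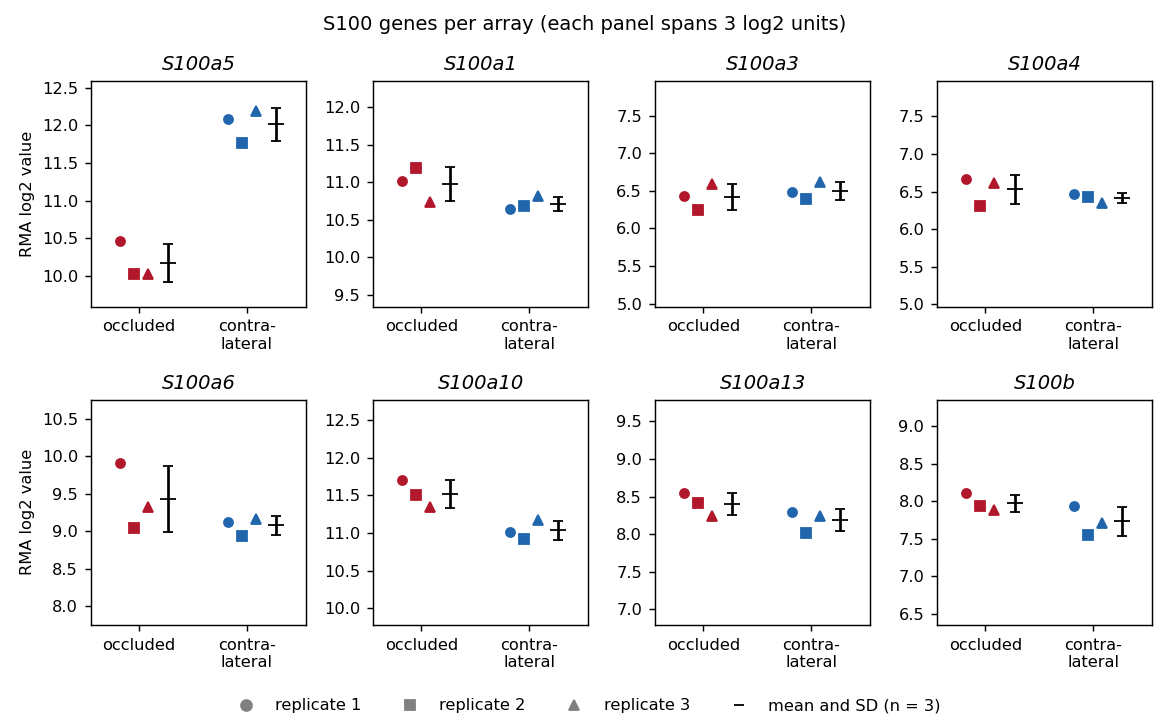
RMA log2 values of the 8 measured S100 genes on each array, occluded side in red and contralateral side in blue, with symbols for the replicate number and a bar for mean and SD (n = 3). Each panel spans 3 log2 units, so that the gap of S100a5 (10.17 against 12.01) can be set beside the small shifts of the others; levels are not comparable between panels.

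S100a10, also called p11, is the family member that no longer binds calcium and stays locked to annexin A2. It had values of 11.71, 11.50 and 11.34 on the occluded side, against 11.01, 10.92 and 11.17 on the contralateral side. Every occluded array lay above every contralateral one, with means of 11.52 ± 0.18 and 11.03 ± 0.13 (SD, n = 3 each). The log2 difference was 0.48 (SE 0.12, 95% interval 0.19 to 0.78), a 1.399-fold higher level, and 2.38% of all probe sets had a higher difference. It did not pass (limma adjusted p 0.823).

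S100a6, or calcyclin, is the direct neighbour of S100a5 and is found in proliferating and connective tissue cells. Its values were 9.92, 9.04 and 9.33 on the occluded side, against 9.13, 8.94 and 9.16 on the contralateral side. Occluded replicate 1 stood above the rest, and the remaining arrays overlapped. The difference of 0.35 (SE 0.22) was 0.11 without that array.

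S100a4, the neighbour on the other flank, is a protein of motile fibroblasts and immune cells that binds non-muscle myosin. Its values were 6.66, 6.31 and 6.62 on the occluded side and 6.47, 6.42 and 6.34 on the contralateral side, with a difference of 0.12 (SE 0.12). S100a3, known from the cuticle of hair, had 6.43, 6.25 and 6.60 on the occluded side and 6.48, 6.39 and 6.62 on the contralateral side, with a difference of -0.07 (SE 0.12) whose sign turned without occluded replicate 2 and with array weights. The sides overlapped for both. Both also lay within the levels of genes not expected in nasal tissue, 30 genes such as those of pituitary, pancreas and testis with a median of 6.39 and a highest level of 8.27: 13 of the 30 were at or above each of them, so their differences are not well measured.

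S100a1, a partner of calcium pumps and release channels best known from heart and skeletal muscle, had 11.02, 11.19 and 10.73 on the occluded side, against 10.64, 10.68 and 10.82 on the contralateral side. Its difference was 0.27 (SE 0.13). S100a13, which takes part in the release of growth factor and cytokine without a signal peptide, had 8.54, 8.41 and 8.25 on the occluded side, against 8.29, 8.02 and 8.24 on the contralateral side. Its difference was 0.22 (SE 0.12). In both genes 1 occluded array lay within the range of the contralateral arrays.

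S100b, the glial member on chromosome 10, had 8.10, 7.93 and 7.88 on the occluded side, against 7.94, 7.55 and 7.72 on the contralateral side. Its difference was 0.24 (SE 0.13) and the sides overlapped. S100b lay below the highest gene not expected in nasal tissue, with 2 of those 30 genes at or above it, and S100a13 lay just over it, at a mean of 8.29.

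**Figure D2:**
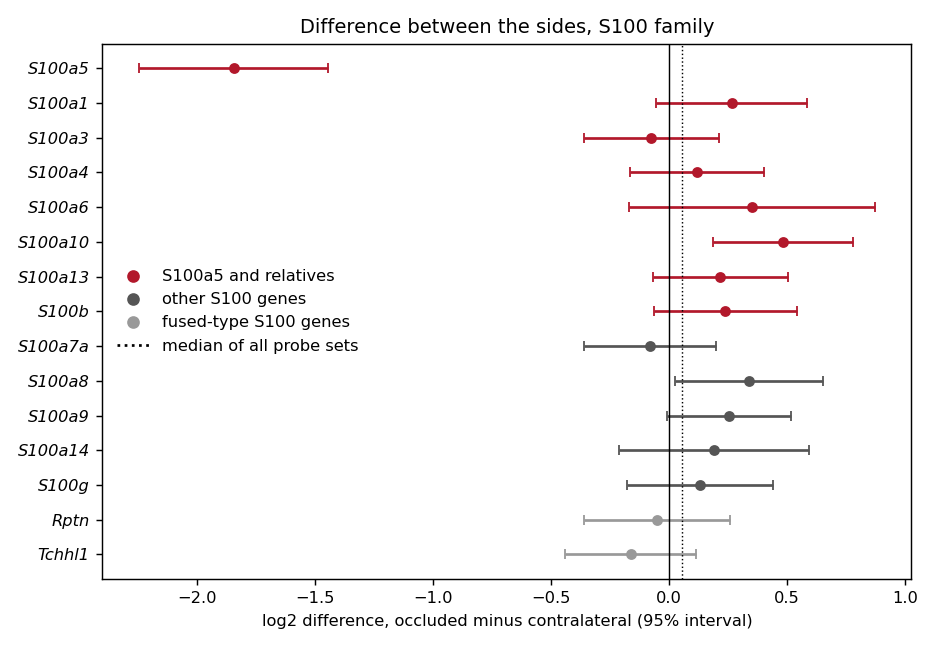
Log2 difference, occluded minus contralateral, with its 95% interval from limma for the 8 measured members (red), 5 other S100 genes and 2 fused-type genes (greys), with the median of all probe sets at 0.055 as a dotted line. S100a5 stands at -1.85, and the other 14 genes lie between -0.16 and 0.48.

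Setting S100a5 against its relatives within an array removes any difference in overall level between arrays. S100a5 minus the mean of the 7 relatives was 1.55, 1.36 and 1.34 on the occluded side, against 3.53, 3.34 and 3.61 on the contralateral side. The values of each side lay close together and the sides were far apart. The difference was -2.07 (SE 0.10), which is a 4.21-fold lower ratio. This SE was taken over arrays, while the 0.17 of S100a5 alone came from limma, so they are not compared. Since S100a5 was chosen on this contrast, the ratio is a description and carries no test.

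With only the 4 relatives above the highest gene not expected in nasal tissue (S100a1, S100a6, S100a10 and S100a13) the difference was -2.18 (SE 0.09), and against each of these alone it ran from -2.33 (SE 0.10) for S100a10 to -2.06 (SE 0.11) for S100a13. Against its neighbour S100a6 the ratio was 0.54, 0.98 and 0.69 on the occluded side, against 2.96, 2.82 and 3.02 on the contralateral side, a difference of -2.20 (SE 0.14). Against Omp it was -3.28, -3.59 and -3.63 on the occluded side, against -1.45, -1.74 and -1.45 on the contralateral side, a difference of -1.95 (SE 0.15). S100a3, S100a4 and S100b lay among the background levels. Against each of them alone the difference was -1.77 (SE 0.19), -1.96 (SE 0.19) and -2.09 (SE 0.13), in that order.

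Markers of mature olfactory sensory neurons, the cells that hold S100a5, were set beside it. Of 20 measured markers 15 lay above 0 and 5 below, 0 passed in either direction, and their median difference was 0.10. Cbr2, 1 of the 20, was also in the list of sustentacular cells, and had a difference of 0.006 (SE 0.09). In 6 of the 20 all occluded arrays lay above all contralateral ones (7.49% of all probe sets did). In 2 all lay below (3.24% did), and the lowest marker was Slc17a6 at -0.52 (SE 0.09). The mean level of the 20 markers ranged over 11.49 to 11.63 on the occluded side and 11.44 to 11.52 on the contralateral side, so the sides of this mean overlapped. S100a5 minus this mean differed by -1.92 (SE 0.15) between the sides.

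**Figure D3:**
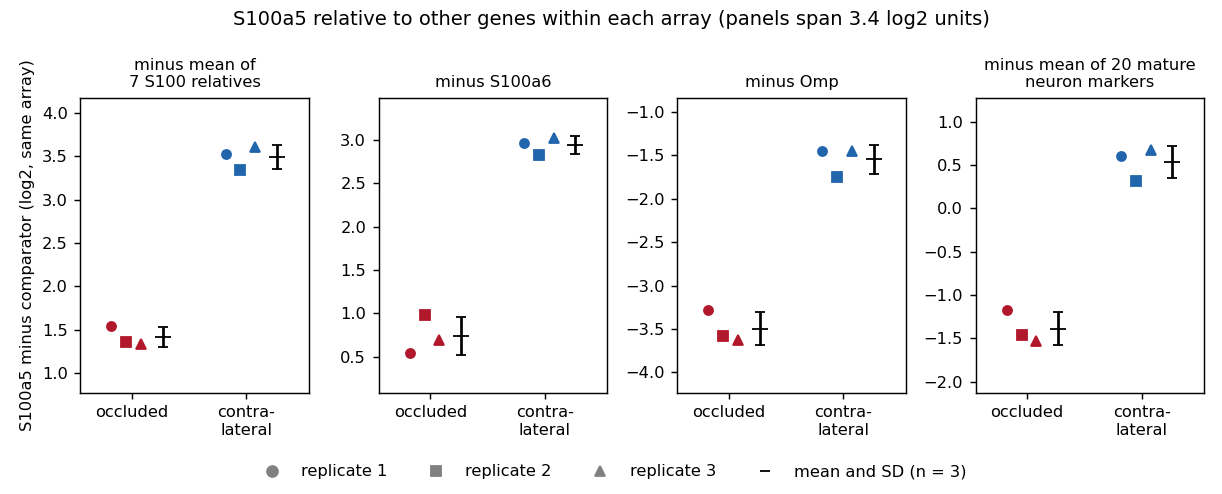
S100a5 minus a comparator on the same array, in log2 units, for the mean of 7 relatives, its neighbour S100a6, Omp, and 20 mature neuron markers; red is occluded, blue contralateral, bars are mean and SD (n = 3). In every panel the 3 occluded arrays lie below the 3 contralateral ones, with mean differences from -2.20 to -1.92.

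The chromosome around S100a5 was read for other genes with a like difference. Between S100a1 and S100a10 the annotation lists 61 protein-coding genes that are not members, most of them genes of the skin barrier, and 31 had a probe set. Their differences ran from -0.58 to 0.34 with a median of -0.05, 13 above 0 and 18 below. None passed, and in none did the occluded arrays all lie below the contralateral ones. Only 3.24% of all probe sets did so, and finding none among 31 genes does not stand out from that share. In 3, S100a8, S100a9 and the skin gene Crct1, all lay above, as in 7.49% of all probe sets. The lowest was Lce1c, a cornified envelope gene, at a mean level of 5.08. Only 1 of the 31, Sprr1a, a cornified envelope precursor, lay above the highest gene not expected in nasal tissue, so this stretch was mostly measured near background. Sprr1a had a difference of -0.53 and overlapping sides.

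**Figure D4:**
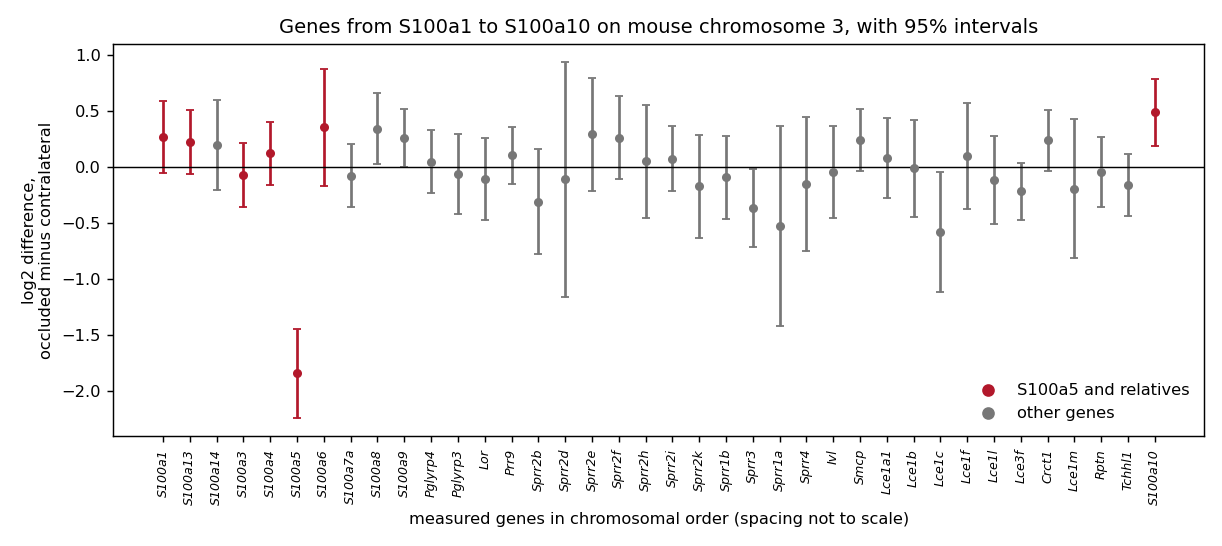
Log2 difference, occluded minus contralateral, with 95% intervals for the measured genes from S100a1 to S100a10 in their order on chromosome 3, members in red and other genes in grey. S100a5 is at -1.85, its flanking genes S100a4 and S100a6 are at 0.12 and 0.35, and the other genes that are not members lie between -0.58 and 0.34.

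The other S100 genes of the array were also small in their differences. Of 5 measured, 0 passed in either direction, 4 lay above 0 and their median was 0.19. S100a8, the calprotectin subunit of neutrophils, had 7.82, 7.66 and 7.54 on the occluded side, against 7.38, 7.12 and 7.50 on the contralateral side, a difference of 0.34 (SE 0.13). Its partner S100a9 had 6.39, 6.11 and 6.16 on the occluded side, against 6.00, 5.86 and 6.03 on the contralateral side, a difference of 0.25 (SE 0.11). In these 2 of the 5 genes all occluded arrays lay above all contralateral ones, as in 7.49% of all probe sets. The gaps between the sides were small, 0.04 for S100a8 and 0.08 for S100a9. S100a14, an epithelial member, was at 0.19 (SE 0.17), the intestinal calcium carrier S100g at 0.13 (SE 0.13) and the skin gene S100a7a at -0.08 (SE 0.12). The fused-type genes Rptn and Tchhl1, long structural proteins of skin and hair that begin with an S100 domain, were at -0.05 (SE 0.13) and -0.16 (SE 0.12).

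Markers of cell types in which the relatives are known were read on both sides, where 64.8% of all probe sets had a difference above 0. Of 17 connective tissue markers 17 were above 0 with a median of 0.30, and their mean level was 10.88 to 11.24 on the occluded side against 10.65 to 10.82 on the contralateral side. Of 14 macrophage markers 13 were above 0 with a median of 0.32, at 8.09 to 8.59 against 7.80 to 8.04, and occluded replicate 1 was the highest array in both lists. Without it the medians were 0.16 and 0.11, and S100a10 was at 0.39. Of 12 neutrophil markers 7 were above 0 with a median of 0.15 (0.07 with centred arrays and -0.03 without the lowest 25% of probe sets), at 7.73 to 7.94 on the occluded side against 7.61 to 7.64 on the contralateral side. The sides of these 3 list means did not overlap, and no marker passed. This was not particular to these lists. The list means of muscle and red blood cells were also higher on the occluded side without overlap. The part of connective tissue, macrophage and neutrophil markers in the values of S100a4, S100a6, S100a8, S100a9 and S100a10 was not tested. Of 12 markers of ensheathing and Schwann glia, the cells known for S100b, 10 were above 0 with a median of 0.04 (-0.04 when arrays were centred on their median), at 8.77 to 8.83 on the occluded side against 8.64 to 8.71 on the contralateral side; their part in S100b was not tested either.

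Proteins that S100 members bind were measured through 33 genes. None passed, 18 lay above 0 and 15 below, and the median was 0.02 (-0.06 when arrays were centred on their median). Those with the smallest p were Fgf1, the growth factor released with S100a13, at 0.31 (SE 0.12), Tgm2, a protein-crosslinking enzyme, at 0.44 (SE 0.19), and the cytokine Il1a at 0.25 (SE 0.11). For Fgf1 the 3 occluded arrays, at 8.66, 8.47 and 8.36, lay above the contralateral ones, at 8.21, 8.04 and 8.32. Among partners named for the members they bind, Anxa2, the partner of S100a10, was at 0.28 (SE 0.16), Cacybp, which binds S100a6, at -0.15 (SE 0.11), and Ager, a receptor for several S100 proteins, at -0.10 (SE 0.08). In 1 of the 33, Ager, the occluded arrays, at 7.68, 7.67 and 7.64, all lay below the contralateral ones, at 7.72, 7.73 and 7.84. In 1, Fgf1, the occluded arrays all lay above. Over all probe sets the shares were 3.24% below and 7.49% above, so 1 of 33 in either direction does not stand out.

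Calcium-binding proteins, most of them built on the same EF-hand fold, gave a wider comparison. Of 44 measured genes 0 passed in either direction, 34 lay above 0 and 10 below, and the median was 0.09. They ran from -0.27 for the centrin Cetn1 to 0.65 for Scgn, the neuroendocrine sensor secretagogin. S100a5 lay outside this range, but it was chosen on this contrast, so that is a description and no test. The smallest p-values belonged to Rcn1, a calcium-binding protein of the endoplasmic reticulum, at 0.54 (SE 0.11), Scgn at 0.65 (SE 0.14) and Necab3 at 0.51 (SE 0.13). In 6 of the 44 all occluded arrays lay above all contralateral ones (7.49% of all probe sets did). In 1, the potassium channel partner Kcnip4 at -0.15 (SE 0.08), all lay below (3.24% of all probe sets did), so this 1 does not stand out.

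In the list of calmodulin targets and calcium transport of olfactory neurons, 31 genes were measured, 0 passed, 23 lay above 0 and 8 below, and the median was 0.09. The genes with the smallest p lay lower, Rasgrp4, an exchange factor for Ras, at -0.85 (SE 0.12), Slc8a1, a sodium-calcium exchanger, at -0.59 (SE 0.09), and Pcp4l1, a calmodulin-binding protein homologue, at -0.92 (SE 0.17). In 4 of the 31 the occluded arrays all lay below the contralateral ones (3.24% of all probe sets did), and in 3 all lay above (7.49% of all). The list was chosen with earlier results of these data known, so its counts are a description and no test. S100a5 had a larger difference than any gene of these lists, which is also a description, since S100a5 was chosen on this contrast.

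**Figure D5:**
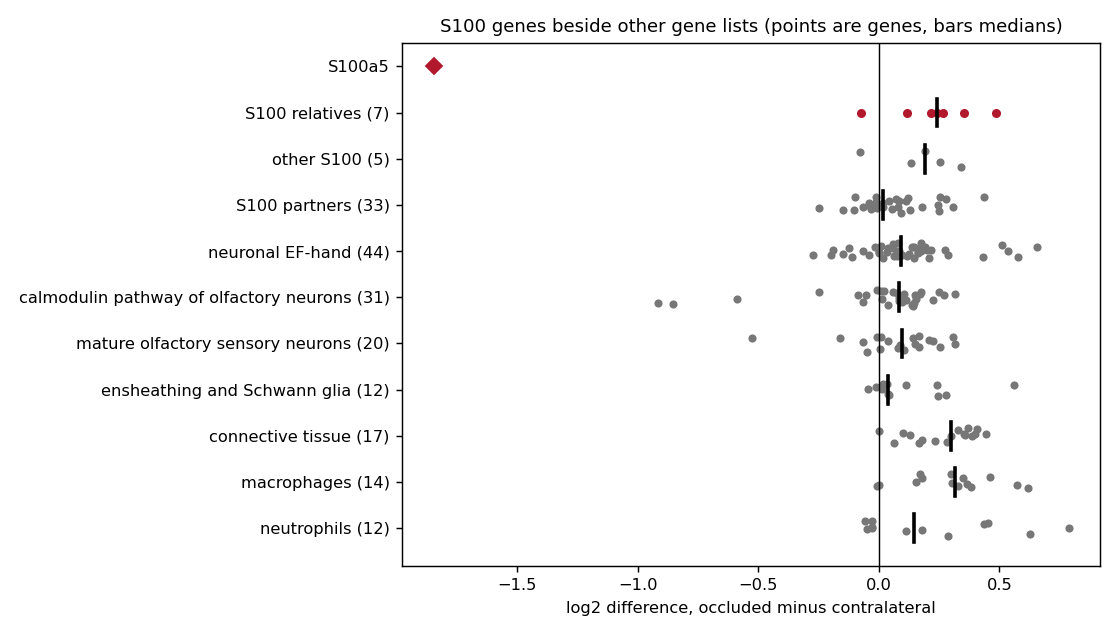
Log2 difference, occluded minus contralateral, for S100a5 (diamond), its 7 relatives (red) and the genes of 9 lists (grey, number measured in brackets), with list medians as bars. S100a5, which was chosen on this contrast, lies at -1.85, outside the range of each list shown. The lowest other gene is Pcp4l1 at -0.92.

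The genes whose pattern over the 6 arrays was most like that of S100a5 were sought among 8682 genes with a mean level at or above the median of all probe sets, by Pearson's r. The 5 highest were Pcp4l1 (r = 0.98), Mapk10, a stress-activated kinase of neurons (r = 0.97), Gpr158, an orphan receptor (r = 0.97), Slc17a6, the vesicular glutamate transporter (r = 0.96), and Dyrk4, a protein kinase (r = 0.96). The arrays share the contrast that chose S100a5, so r also carries the difference between the sides. Those 5 differences were smaller than that of S100a5, from -0.92 (SE 0.17) for Pcp4l1 to -0.26 (SE 0.08) for Mapk10. Pcp4l1 had 9.99, 9.52 and 9.62 on the occluded side, against 10.75, 10.36 and 10.77 on the contralateral side. For deviations from the side means, r with S100a5 was 0.98 for Pcp4l1, 0.76 for Dyrk4, 0.54 for Gpr158, 0.23 for Slc17a6 and 0.05 for Mapk10. Values as high were not particular to Pcp4l1: Pdgfa, a growth factor, reached 0.9986 within the sides with a difference of 0.09 (SE 0.11).

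The relatives had r with S100a5 from -0.78 for S100a10 to 0.36 for S100a3 over the 6 arrays. Within the sides the sign was positive for each of the 7, from 0.22 for S100a1 to 0.89 for S100a10, with 0.88 for S100a13 and 0.85 for S100a6. Such values were common, since the median within-side r of the 8682 genes was 0.75 and 32.3% of them reached 0.85.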

How the data were processed

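Total RNA was measured on Affymetrix exon arrays. The authors deposited log2 values from RMA (Expression Console, core gene analysis), per the labels. RMA evens out probe distributions, which can shrink shifts that many genes share. No depth applies to arrays, and their number limits the precision.

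Gene names came from the platform annotation: 14996 of 23332 carried 1 symbol, 1019 several and 7317 none, and only those with 1 were named. For each gene the probe set with the highest mean was used. The occluded and contralateral sides (3 arrays each) were fitted over all probe sets with limma 3.58.1 (R 4.3.3), two-sided, with Benjamini-Hochberg adjustment at 0.05 and no replicate block; the fit was tested on simulated data. With 3 arrays a side an exact permutation test reaches at best p = 0.1 (two-sided), so none was used. Ratios are differences of log2 values within an array, with an SE over arrays. Pattern likeness was Pearson's r.

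The members and gene lists were chosen with earlier results of these data known. Named were the members, every measured other S100 and fused-type gene, the 3 genes of smallest p in the partner, EF-hand and calmodulin lists, the 5 genes most like S100a5, and genes between the members on the chromosome; Anxa2, Cacybp, Ager, Kcnip4, Cetn1, Lce1c, Crct1, Sprr1a and Pdgfa were singled out after their values were seen. Lists of immature neurons, basal and sustentacular cells, endothelium, muscle, respiratory ciliated cells and red blood cells had median differences of -0.06, 0.02, -0.04, 0.26, 0.11, 0.28 and 0.54, and none of their genes passed. Promoter sequences are from RefSeq (GRCm38.p6). Protein sequences were not used here.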

Additional observations from a re-analysis of the deposited data

How the results depend on the processing

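The difference of S100a5 stayed between -2.001 and -1.76 in 15 alternatives (a replicate block, 3 other scalings, probe set filters, variance models, array weights and leaving out each array), and was -1.99 to -1.76 when 1 array was left out. S100a5 minus the mean of its relatives stayed between -2.18 and -2.02 in 12. Over all probe sets the count called, 0 in the reported fit, was 1 with only probe sets of 1 symbol, 62 with array weights, whose estimation stopped before convergence, and 1 without contralateral replicate 2; no relative was among them, and S100a5, which was in the first 2, was chosen on this contrast, so that this is no test of it; it ranged over 0 to 1 when 1 array was left out. The median of the relatives, 0.24, was 0.10 with array weights and 0.16 to 0.17 under the 3 other scalings, which moved the median of all probe sets from 0.055 to between -0.02 and -0.0006; it was 0.15 to 0.29 when 1 array was left out, lowest without occluded replicate 1. S100a3 turned positive with array weights (0.080) and without occluded replicate 2, and was -0.16 to 0.013 when 1 array was left out. The sign of the other 6 relatives held in each alternative that tested them. S100a6 ran from 0.11 without occluded replicate 1 to 0.54 without occluded replicate 2, and S100a10 from 0.35 with array weights to 0.57 without occluded replicate 3. The medians of the partner, basal and progenitor, and ensheathing glia lists turned negative under the 3 other scalings, and the first 2 also without occluded replicate 1; those of the basal, neutrophil, immature neuron and background lists turned sign without contralateral replicate 2, without the lowest 25% of probe sets, without occluded replicate 2, and without occluded or contralateral replicate 3, in that order. Same-numbered arrays showed little shared deviation (r of deviations 0.01, 0.17 and -0.04). With 3 arrays a side this cannot show whether they share a mouse. The numbers were not used as pairs because the labels do not say that a number is a mouse. With the replicate block S100a5 was at -1.85 (SE 0.14, against 0.17 without the block). Its ratio to the relatives was then at -2.07 (SE 0.09), and 0 probe sets were called. Taking the mean of several probe sets could not be run, as each member had 1. S100a3 and S100a4 fell out with the lowest 25% of probe sets. The cause of these shifts was not tested.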
